A study of Mus musculus with 12 samples.

Results

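The genes that write and erase cytosine methylation (Dnmt1, Dnmt3a, Dnmt3b, Tet1, Tet2 and Tet3) and 4 genes of the Polycomb machinery (Ezh1, Ezh2, Asxl1 and Bmi1) were followed in LT-HSCs (long-term haematopoietic stem cells), which keep all blood lineages supplied for life. They were taken by name; the rule uses none of their values, but it was set with earlier results of these data known. They are 10 of the 23472 genes in the deposited count table. All 10 passed the filter on low counts that left 13184 genes for testing. The 6 libraries labelled Jak1 KO came from cre-positive C57BL/6 mice and the 6 wt libraries from cre-negative C57BL/6 mice. Both groups had received 4 doses of poly(I:C), a synthetic mimic of viral RNA that triggers interferon release, 4 to 6 weeks before the marrow was taken. The labels used here spell out neither the promoter that drives cre nor the deleted exons. With cre in 1 genotype alone, its own effects and those of losing Jak1 cannot be told apart. Jak1 is a kinase that relays cytokine and interferon signals. Within each genotype, replicates 1 to 3 carry names of a VD set and replicates 4 to 6 names of a ZL set, and what separates the sets is not stated. The VD names also read MXplus in Jak1 KO and MXminus in wt, without saying what MX stands for.

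Library totals ran between 8989965 and 28701855 counts, and the ribosomal gene Rn45s took 0.511% to 0.95% of them in ZL libraries and 14.8% to 22.6% in VD libraries. Jak1 was not lower in the libraries labelled Jak1 KO, and without the deleted exons its gene count cannot check the labels. It lay between 246 and 727 CPM (counts scaled to a library of 1000000) in the libraries labelled Jak1 KO and between 321 and 435 CPM in wt, and in VD all 3 libraries labelled Jak1 KO (375 to 408 CPM) were above all 3 of wt (321 to 358 CPM). All 12 LT-HSC markers on the list used (Procr, Slamf1, Hlf and Mecom among them) were detected and tested, with a summed level of 2465 to 4964 CPM in Jak1 KO and 2610 to 5136 CPM in wt. Megakaryocyte markers summed to 454 to 783 CPM in Jak1 KO and 1020 to 1377 CPM in wt, with 1 of 6 lower in Jak1 KO by edgeR, beside 57 of 13184 genes. Erythroid markers summed to 915 to 5643 CPM in Jak1 KO and 856 to 3062 CPM in wt, neutrophil markers to 95.5 to 1422 CPM in Jak1 KO and 139.7 to 1430 CPM in wt, and monocyte markers to 234 to 955 CPM in Jak1 KO and 219 to 504 CPM in wt. The part of these cells in the values below was not tested. Libraries of the ZL set stood apart from one another along gene length: across genes within a library, the level relative to the set mean had a Spearman correlation with exon length of -0.52 in Jak1 KO 4, 0.45 in Jak1 KO 6 and 0.38 in wt 6. The labels do not tie each library to a mouse of its own, and the p-values then speak only of the spread among these libraries, some of which may be technical.

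As background, DNA methyltransferases place methyl groups on cytosine: Dnmt1 copies the pattern to the new strand after replication, and Dnmt3a and Dnmt3b set methylation on unmodified sites. TET dioxygenases oxidise methylated cytosine and start its removal. Polycomb repressive complex 2 (PRC2) methylates histone H3 through Ezh1 or Ezh2, PRC1 (with Bmi1) ubiquitinates histone H2A, and the Polycomb deubiquitinase complex (with Asxl1) takes that ubiquitin off. The human counterparts of Dnmt3a, Tet2 and Asxl1 are the genes most often mutated in clonal haematopoiesis, and Bmi1 is required for the self-renewal of mouse HSCs.

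Dnmt1 was the most abundant of the 10 transcripts per unit length and Tet2 the least. On the scale of normalised reads per kilobase of exon (RPKM), computed with the union of exons of each gene in the mouse build GRCm38, Dnmt1 averaged 58.6 ± 24.9 RPKM over all 12 libraries (SD), at the 94.4th percentile of the 13072 tested genes with a length. Ezh2 followed at 19.7 ± 2.26 RPKM, Dnmt3b at 18.5 ± 4.55 RPKM, Bmi1 at 16.7 ± 5.68 RPKM, Asxl1 at 13.2 ± 8.52 RPKM and Ezh1 at 10.7 ± 3.35 RPKM. Dnmt3a stood at 7.60 ± 3.04 RPKM, Tet3 at 6.36 ± 3.67 RPKM, Tet1 at 5.86 ± 1.26 RPKM and Tet2 at 2.55 ± 0.906 RPKM, the 25.1th percentile. The ends of this order were steady: Dnmt1 was above Ezh2 in 11 of 12 libraries and Tet1 above Tet2 in 12 of 12. Its middle was not, since Ezh2 exceeded Dnmt3b in 7 libraries, Bmi1 exceeded Asxl1 in 6, Asxl1 exceeded Ezh1 in 6 and Tet3 exceeded Tet1 in 6. With the longest coding transcript in place of all exons, Ezh1 moved up to rank 4, with Bmi1 at 5 and Asxl1 at 6.

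**Figure D1:**
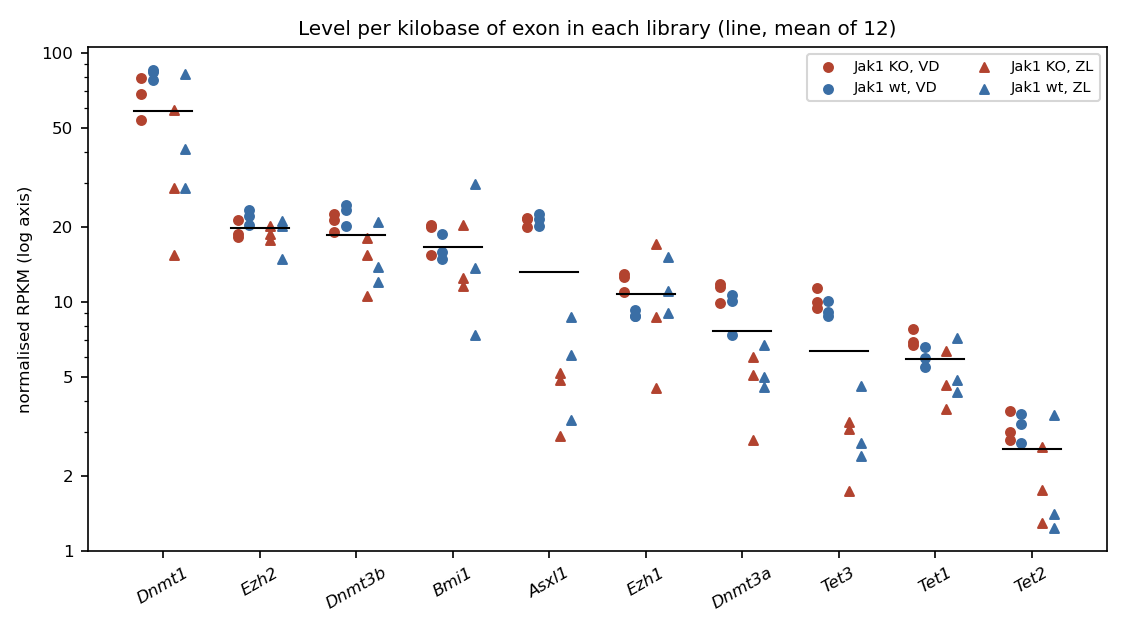
Level of each of the 10 regulators in RPKM (log axis), 1 point per library for Jak1 KO and wt, circles for VD, triangles for ZL, and a line at the mean of 12. Dnmt1 averages 58.6 RPKM and Tet2 2.55 RPKM, and the genes between them overlap from library to library.

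The first question was whether these genes differed between Jak1 KO and wt LT-HSCs. By edgeR's quasi-likelihood test with a term for the set and Benjamini-Hochberg adjustment over 13184 genes, 0 of the 10 passed an adjusted p of 0.05, beside 0.44% of all genes tested. At an unadjusted p of 0.05 edgeR also gave 0 of the 10, beside 5.06% of all genes, and DESeq2 and limma-voom each called 0 of the 10. The log2 fold changes of Jak1 KO over wt were below 0 for 7 genes and above 0 for 3, with a median of -0.06, against -0.01 over all genes. Among the 7054 tested genes with exon lengths in the range of the 10 (3974 to 16870 bp), the median was -0.07 and 37.3% lay above 0. That range takes in 7054 of the 13072 tested genes with a length, and lengths within it were not matched. Dnmt3a, Tet1, Tet2 and Tet3 lie near its upper end (15457 to 16870 bp). Comparisons with this range, here and below, therefore do not remove the trend with length. The 95% intervals were widest for Dnmt1 (-1.07 to 0.21) and narrowest for Ezh2 (-0.36 to 0.20). They rest on this model and these 12 libraries, and changes beyond them are not excluded. In bulk RNA, fewer cells of a type and less RNA per cell cannot be told apart, and this holds for each level given here. The signs moved when 3 ZL libraries were left out: without Jak1 KO 4, Jak1 KO 6 and wt 6, 4 of the 10 were below 0 and 6 above, with a median of 0.15. That fit keeps only Jak1 KO 5 against wt 4 and wt 5 in ZL, so it leans on VD, where 7 of the 10 were above 0. This limit holds for each later genotype fit without these 3 libraries.

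**Figure D2:**
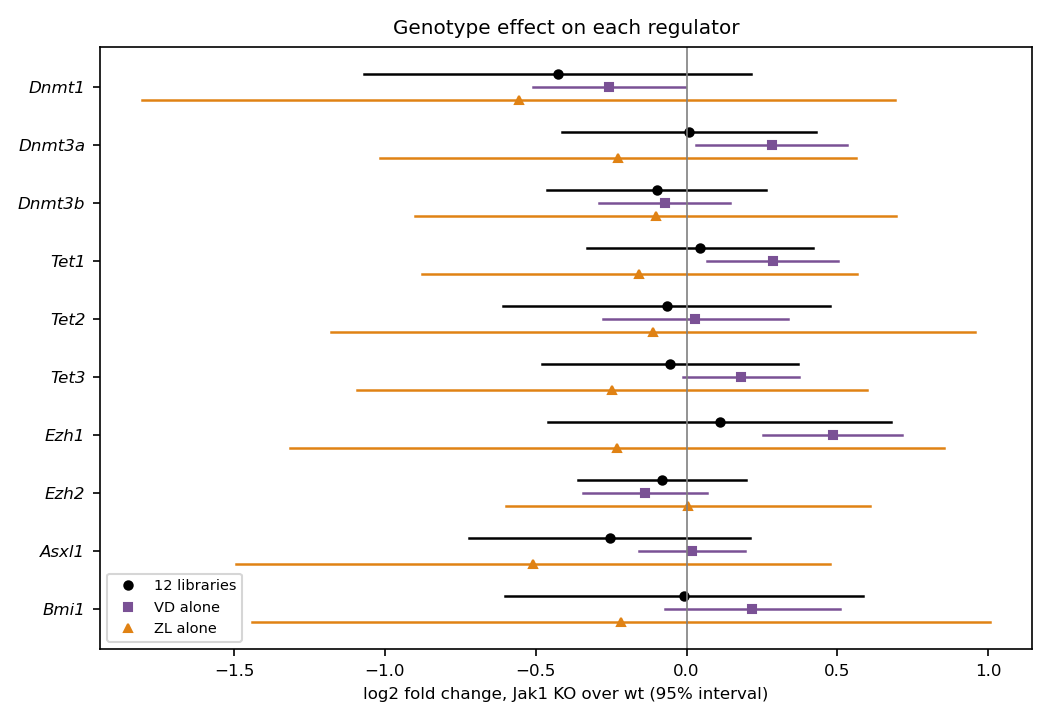
Log2 fold change of Jak1 KO over wt with its 95% interval for each of the 10 regulators, over 12 libraries, in the VD set alone and in the ZL set alone. All intervals over 12 libraries include 0, and Ezh1 in the VD set (0.48, 0.25 to 0.71) is the only one past the adjusted threshold.

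The sets differed in how much they could show. SEs of the 10 log2 fold changes were 0.26 to 0.54 in the ZL set alone and 0.08 to 0.14 in the VD set alone. The VD set gave 1 call among the 10, Ezh1, beside 1.15% of the 12903 genes tested there (0.395% higher in Jak1 KO, as Ezh1 was), and 4 of the 10 at an unadjusted p of 0.05 (Dnmt1, Dnmt3a, Tet1 and Ezh1), beside 13.6% of all genes. The ZL set gave 0 calls among the 10 and 0 at an unadjusted p of 0.05 by edgeR, beside 0% of 13859 genes called and 1.63% at an unadjusted p of 0.05. Fold changes were below 0 for 9 of the 10 in ZL, where 33.3% of genes in the same exon length range lay above 0. They were above 0 for 7 of the 10 in VD, where 54.3% of such genes did. The difference between the sets was tested as an interaction, and 0 of the 10 passed, with 0 at an unadjusted p of 0.05 by edgeR and 0 called by DESeq2 or limma-voom, beside 0% of all genes called and 1.38% at an unadjusted p of 0.05.

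Dnmt1, the maintenance methyltransferase, showed the widest gap between genotype means without passing the test. It lies on chromosome 9 (20907209 to 20959888, minus strand). Its normalised level in the VD set was 504, 584 and 397 CPM in Jak1 KO, against 618, 630 and 576 CPM in wt. ZL libraries held 114, 210 and 437 CPM in Jak1 KO, against 302, 211 and 607 CPM in wt. The ranges overlapped within both sets, and the lowest library of all was Jak1 KO 4. Over 12 libraries Dnmt1 averaged 374 ± 179 CPM in Jak1 KO and 491 ± 185 CPM in wt (SD, n = 6 each), a log2 fold change of -0.43 (SE 0.30, adjusted p = 0.945 by edgeR). The VD set alone gave -0.26 (SE 0.12, unadjusted p = 0.0458, adjusted p = 0.357 by edgeR). The value moved with single libraries: without wt 6 the log2 fold change was -0.17, without Jak1 KO 4 it was -0.22, and without Jak1 KO 6 it was -0.69, all uncalled.

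Neither de novo methyltransferase passed the test. Dnmt3a (chromosome 12, 3806007 to 3914443, plus strand) was measured at 196, 190 and 165 CPM in the VD libraries of Jak1 KO, against 176, 167 and 123 CPM in those of wt. The ZL libraries gave 46.5, 84.5 and 99.3 CPM in Jak1 KO and 82.7, 75.3 and 111 CPM in wt. Jak1 KO values leaned higher in VD and lower in ZL, with overlapping ranges in each. The log2 fold change was 0.01 (SE 0.20, 95% interval -0.41 to 0.43, adjusted p = 0.996 by edgeR). Dnmt3b (chromosome 2, 153649450 to 153687730, plus strand), best known for its activity in the early embryo, was above Dnmt3a per unit length, and averaged 90.9 ± 22.2 CPM in Jak1 KO and 97.5 ± 25.9 CPM in wt (SD, n = 6 each). Its log2 fold change was -0.10 (SE 0.17, 95% interval -0.46 to 0.26), and all its groups overlapped.

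**Figure D3:**
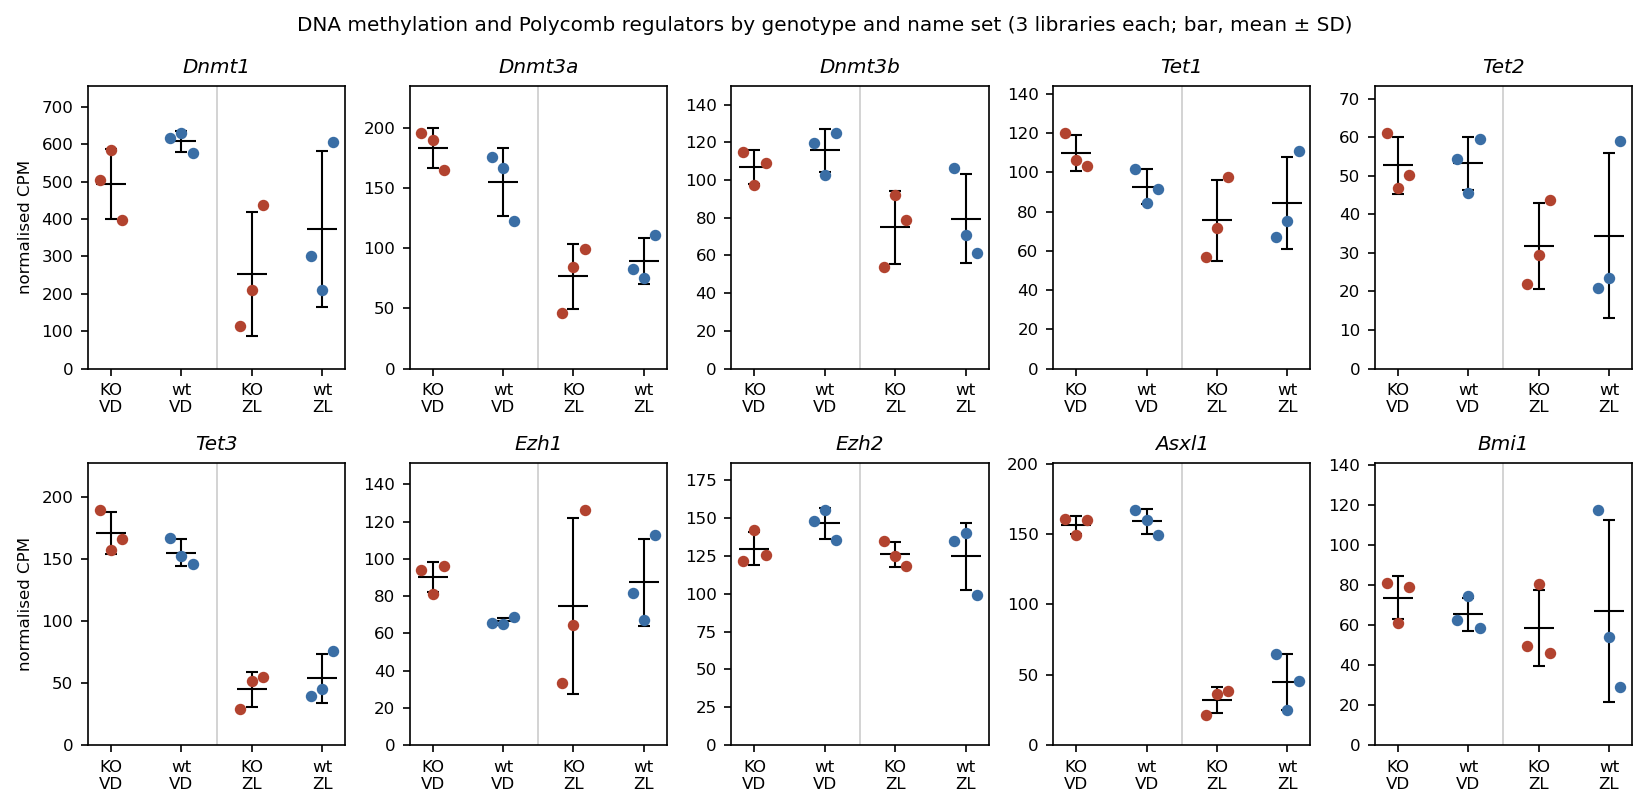
Normalised CPM of the 10 regulators, 1 point per library with the mean and SD of each 3, Jak1 KO left of wt, VD libraries left and ZL libraries right. Within VD, Ezh1 is at 81.0 to 96.2 CPM in Jak1 KO and 65.2 to 68.6 CPM in wt, while in ZL every gene overlaps between genotypes.

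Of the TET genes, Tet1 (chromosome 10, 62804570 to 62908996, minus strand) separated the genotypes in the VD set, at 120, 106 and 103 CPM in Jak1 KO, against 102, 84.4 and 91.7 CPM in wt. In ZL the values were 57.1, 71.7 and 97.9 CPM in Jak1 KO and 67.0, 75.2 and 111 CPM in wt, with overlap. The VD difference of 0.29 on the log2 scale (SE 0.10) had an unadjusted p of 0.0135 and an adjusted p of 0.219 by edgeR, and over 12 libraries the log2 fold change was 0.04 (SE 0.17). Groups without overlap in the VD set were found for 2 of the 10 genes, Tet1 and Ezh1, beside 19.8% of all genes tested (6.61% with Jak1 KO above wt, as here), and in the ZL set for 0 of the 10, beside 4.33%. Tet2 (chromosome 3, 133463679 to 133545139, minus strand) averaged 42.2 ± 14.3 CPM in Jak1 KO and 43.8 ± 17.5 CPM in wt (SD, n = 6 each), with a log2 fold change of -0.07 and a 95% interval of -0.61 to 0.48. Tet3 (chromosome 6, 83362373 to 83459084, minus strand) averaged 108.0 ± 70.4 CPM in Jak1 KO and 104 ± 57.4 CPM in wt (SD, n = 6 each), with a log2 fold change of -0.06 and a 95% interval of -0.48 to 0.37. Most of the spread of Tet3 lay between the sets, since it was at 29.0 to 76.2 CPM in ZL libraries and 146 to 190.0 CPM in VD libraries.

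Ezh1 and Ezh2 are the alternative catalytic subunits of PRC2; Ezh2 is the form of dividing cells and Ezh1 persists in resting ones. Ezh1 (chromosome 11, 101191115 to 101226463, minus strand) was the gene called in the VD set. Its levels there were 93.9, 81.0 and 96.2 CPM in Jak1 KO, against 65.5, 65.2 and 68.6 CPM in wt. All 3 VD libraries of Jak1 KO were above all 3 of wt. The means were 90.4 ± 8.19 CPM in Jak1 KO and 66.4 ± 1.92 CPM in wt (SD, n = 3 each), a log2 fold change of 0.48 (SE 0.11, 95% interval 0.25 to 0.71, adjusted p = 0.0430 by edgeR). The difference kept its size with any VD library left out, at 0.44 to 0.55. With 1 library fewer, though, the adjusted p rose above 0.05 for each of the 6 but Jak1 KO 2. It was 0.210 without wt 1, 0.142 without wt 2, 0.0727 without wt 3, 0.205 without Jak1 KO 1 and 0.156 without Jak1 KO 3. Correcting every library for its trend with exon length by an offset gave a log2 fold change of 0.43 and an adjusted p of 0.0695 in edgeR.

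The ZL libraries did not repeat the Ezh1 difference. They held 33.5, 64.3 and 126 CPM in Jak1 KO, against 81.9, 67.2 and 113 CPM in wt, so Jak1 KO gave both the lowest and the highest value. The log2 fold change in ZL alone was -0.23 (SE 0.47), and over 12 libraries it was 0.11 (SE 0.27, adjusted p = 0.959 by edgeR). The difference between sets, ZL minus VD, was -0.67 (SE 0.52, 95% interval -1.78 to 0.45), with an unadjusted p of 0.220 in the same model, which leaves the sets not shown to differ. Ezh2 (chromosome 6, 47530139 to 47595341, minus strand) was the steadiest of the 10, at 118 to 142 CPM in Jak1 KO and 98.9 to 156 CPM in wt. Its spread within sets, an SD of 0.16 on the log2 scale, was at the 3.75th percentile of all genes, and its log2 fold change was -0.08 (SE 0.13, 95% interval -0.36 to 0.20).

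The balance of Ezh1 and Ezh2 was taken as a ratio. Per unit exon length, the log2 ratio of Ezh1 to Ezh2 in the VD set was -0.68 ± 0.25 in Jak1 KO and -1.29 ± 0.14 in wt (SD, n = 3 each), with no overlap. In the ZL set it was -1.11 ± 1.05 in Jak1 KO and -0.68 ± 0.65 in wt, with overlap. Ezh2 remained the more abundant in 11 of 12 libraries; in wt 6 the ratio was 1.02. Within the DNA methylation genes, the log2 ratio of Dnmt3a to Dnmt1 in VD was -2.59 ± 0.18 in Jak1 KO and -3.16 ± 0.22 in wt, again without overlap. That of Tet2 to Tet1 in VD was -1.19 ± 0.11 in Jak1 KO and -0.93 ± 0.16 in wt, with Jak1 KO below wt in all 3. Neither separated the genotypes in ZL, where Dnmt3a to Dnmt1 was -2.76 ± 0.48 in Jak1 KO and -3.11 ± 0.48 in wt, and Tet2 to Tet1 was -1.40 ± 0.11 in Jak1 KO and -1.55 ± 0.45 in wt. The ratios of Dnmt3a to Dnmt3b and of Tet2 to Tet3 overlapped between genotypes in both sets. These ratios combine genes whose single differences are given above and were not tested. Of all single genes tested, 19.8% had no overlap between genotypes in VD, and the share over gene pairs was not computed.

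The DNA just before the RefSeq starts of the 2 PRC2 enzyme genes is shown because Ezh1 was called and its partner was not. Each sequence is the 250 bases before the RefSeq transcript start in GRCm38.p6, on the gene's own minus strand, with CpG dinucleotides, the sites that DNA methyltransferases act on, in capitals. They lie at chr11:101226464-101226713 for Ezh1 and at chr6:47595031-47595280 for Ezh2. The Ezh2 window falls inside the gene span given above, which comes from GENCODE and reaches past the RefSeq start.
Ezh1: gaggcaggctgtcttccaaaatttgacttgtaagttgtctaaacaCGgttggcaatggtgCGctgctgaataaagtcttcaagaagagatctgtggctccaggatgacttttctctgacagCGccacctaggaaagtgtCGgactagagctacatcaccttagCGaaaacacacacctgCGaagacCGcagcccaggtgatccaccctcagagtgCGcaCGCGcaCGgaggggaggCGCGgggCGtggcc
Ezh2: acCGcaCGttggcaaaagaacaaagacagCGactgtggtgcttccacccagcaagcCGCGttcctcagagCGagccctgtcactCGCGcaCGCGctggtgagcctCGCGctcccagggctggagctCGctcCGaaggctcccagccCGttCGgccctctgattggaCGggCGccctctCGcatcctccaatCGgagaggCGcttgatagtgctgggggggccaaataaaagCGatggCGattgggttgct
The Ezh1 window had 14 CpG sites and 55.2% G+C, and the Ezh2 window 23 CpG sites and 63.6% G+C, against medians of 6 CpG sites and 52.4% G+C over all 32851 RefSeq promoters. Across the 14 start sites of the 10 genes, CpG sites ran between 2 at a Dnmt1 start and 51 at the Tet2 start. On both strands, 4 motifs were searched: the STAT element TTCNNNGAA (in 7.02% of all promoters), the interferon-stimulated response element (2.98%), and the E2F elements TTTGGCGC (0.417%) and TTTCCCGC (0.895%). None of the 14 windows held any of the 4 motifs, which says nothing about sites elsewhere.

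Asxl1 and Bmi1 were the remaining Polycomb genes. Asxl1 (chromosome 2, 153345829 to 153404007, plus strand) was low in the ZL set, at 21.4, 36.0 and 38.5 CPM in Jak1 KO and 64.7, 24.9 and 45.4 CPM in wt. VD libraries were higher and nearly constant, at 161, 149 and 160 CPM in Jak1 KO and 167, 160 and 150 CPM in wt. Genotypes overlapped in both sets, and the log2 fold change was -0.26 (SE 0.22, 95% interval -0.72 to 0.21, adjusted p = 0.945 by edgeR). The annotation places 197 bp of Asxl1 exon opposite 2500004C02Rik, a gene that is also in the count table, and the sources used here do not say whether strand was counted. Bmi1 (chromosome 2, 18677018 to 18686629, plus strand) had equal means, 66.2 ± 16.1 CPM in Jak1 KO and 66.2 ± 29.4 CPM in wt (SD, n = 6 each). Its ZL values were the most scattered in wt, at 118, 54.2 and 29.2 CPM, against 49.4, 80.5 and 46.1 CPM in Jak1 KO, and its log2 fold change was -0.01 with a 95% interval of -0.60 to 0.58.

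The larger differences lay between the sets. ZL libraries, compared with VD libraries in the same model, had 6 of the 10 genes lower and 0 higher, beside 24.5% of all genes lower and 35.4% higher. Among genes in the same exon length range, 32% were lower. Asxl1 was 4.16-fold lower in ZL (log2 -2.06, SE 0.23, adjusted p = 4.96e-06 by edgeR), Tet3 3.31-fold lower (adjusted p = 9.12e-06) and Dnmt3a 2.03-fold lower (adjusted p = 0.000557). For these 3 genes no ZL library reached the lowest VD library, beside 38.4% of all genes without overlap between the sets. Dnmt1 (log2 -0.83), Tet2 (-0.68) and Dnmt3b (-0.53) also passed, with adjusted p of 0.0271, 0.0321 and 0.0155 in that fit. Tet1, Ezh2, Bmi1 and Ezh1 did not, at log2 differences of -0.34, -0.14, -0.15 and 0.06. The median of the 10 was -0.60, against 0.20 over all genes and -0.11 over genes in the same exon length range. With DESeq2's size factors the median of the 10 was -0.75 and that of all genes 0.06.

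Part of the set difference moved with gene length. Correcting every library for its trend with exon length by an offset left Asxl1 (-1.68), Tet3 (-0.95) and Dnmt3b (-0.37) lower, and put Tet1 higher in ZL by 0.42 (adjusted p = 0.00316 by edgeR). Tet1 was called the other way, lower in ZL, with DESeq2's size factors (-0.49, adjusted p = 0.0145 by edgeR), upper quartile factors (-0.45), the DESeq2 test (-0.49) and limma-voom (-0.44). It was also called lower with Rn45s and Lars2 left out (-0.50), without Jak1 KO 4, Jak1 KO 6 and wt 6 (-0.56), and without Jak1 KO 4 (-0.41) or wt 6 (-0.47) alone, so its direction depended on the correction for length. Under it Dnmt3a stood at -0.25 and Dnmt1 at -0.52, both uncalled, and Tet2 at 0.07. The calls on Dnmt1 and Tet2 lay close to the threshold. Dnmt1 lost its call without any 1 of Jak1 KO 2, Jak1 KO 5, wt 4 and wt 5 (adjusted p of 0.0529 to 0.0617 by edgeR). Its log2 differences in those fits were -0.79 to -0.72, about as large as with all libraries. Tet2 lost its call without any 1 of Jak1 KO 1, 3 and 5 and wt 1, 3, 4 and 5 (0.0517 to 0.0734), at differences of -0.69 to -0.57.

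**Figure D4:**
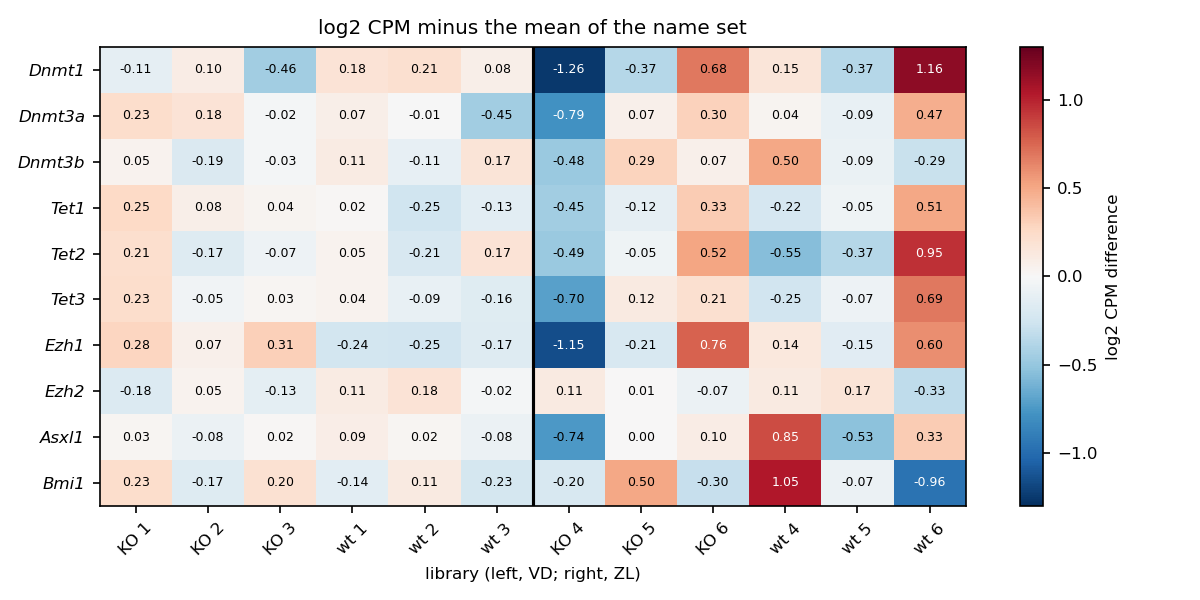
Log2 CPM of each of the 10 regulators (rows) minus its mean in the same set, by library (columns, VD left and ZL right, Jak1 KO left of wt), red above and blue below 0. Jak1 KO 4 is below 0 for 9 of 10 genes and wt 6 is above 0 for 7 of 10. Of all tested genes, 51.1% are below 0 in Jak1 KO 4 and 47.1% in wt 6.

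Within the ZL set single libraries of both genotypes stood apart. Jak1 KO 4 was below the set mean for 9 of the 10, all but Ezh2, beside 51.1% of all genes. Its median over the 10 was -0.59 on the log2 scale, against -0.39 over genes in the same exon length range. In Jak1 KO 6 the median of the 10 was 0.26, against 0.22 for genes in that range, and 2 of the 10 were below the mean, beside 48.2% of all genes. In wt 6 it was 0.49, against 0.24, with Dnmt1 at 1.16 and Bmi1 at -0.96. The library wt 5 was below the mean for 9 of the 10, beside 44% of all genes. Its median over the 10 was -0.09, against -0.02 for genes in that range. Highest over lowest ZL library was 5.33 for Dnmt1, 4.03 for Bmi1, 3.78 for Ezh1 and 3.02 for Asxl1, but 1.42 for Ezh2.

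The genes with the most similar profiles over the 12 libraries were found by the root mean square difference of log2 CPM, centred within each set, among 12801 genes. For Dnmt1 these were Ywhag (0.08) and Ncapd2 (0.10), for Tet1 Ttc39b (0.07) and Mbd4 (0.08), for Tet3 Smg1 (0.08) and Trim33, for Dnmt3a Rfx7 (0.09) and Lcp1, and for Ezh1 Mmrn1 (0.09) and Galnt4. Among the 10, Tet1 and Tet3 were closest to each other within sets (0.13), followed by Dnmt3a and Tet3 (0.16), and Dnmt1 and Bmi1 were farthest apart (0.87). Tet1, Tet3 and Dnmt3a have long exon unions (15457, 16695 and 16642 bp). Tet2, with 16870 bp, was 0.22 from Tet3 and 0.34 from Dnmt3a. The part of the trend with exon length in these profiles was not tested.

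The partners of the 10 genes were examined in lists of 120 related genes, of which 107 were tested. By edgeR 0 of the 107 passed the adjusted threshold for genotype, 8 stood at an unadjusted p below 0.05 (7.48%, beside 5.06% of all genes), and DESeq2 and limma-voom called 0 each. Fold changes were below 0 for 60 and above 0 for 47, with a median of -0.04. For DNA methylation cofactors and readers the counts were 5 below and 7 above 0 of 12 tested, with a median of 0.02; Uhrf1, which brings Dnmt1 to newly replicated DNA, had a log2 fold change of -0.29 (SE 0.19), and Mbd2, a reader of methylated DNA, -0.73. That of Mbd2 rested on wt 4, at 101.7 CPM beside 9.40 to 25.05 CPM in the other ZL libraries, and was 0.065 without it. Cdca7, a replication-linked gene of the same list, had -0.31. For demethylation partners they were 3 below and 7 above of 10; Gadd45a, a stress-response gene linked to demethylation, had 0.89 (SE 0.34, unadjusted p = 0.0210 and adjusted p = 0.818 by edgeR), and 0.52 without Jak1 KO 4. Neil1, a DNA glycosylase, had 0.30, and 0.17 without Jak1 KO 3.

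Polycomb partners gave no call either. Other PRC2 subunits split into 5 below and 4 above 0 of 9, with Eed, which binds the trimethylated mark, at 0.02 and Suz12, a core scaffold, at -0.15; the smallest p belonged to Jarid2, an accessory subunit, at -0.44 (-0.75 without Jak1 KO 6 and -0.16 without wt 6), and Rbbp4, a histone-binding subunit, at -0.13. Other PRC1 subunits had 16 below and 9 above of 25, with a median of -0.06, and Phc2, a polyhomeotic subunit, at -0.78 (SE 0.38), and L3mbtl2 at -0.38. Phc2 too rested on wt 4, at 94.8 CPM beside 15.6 to 19.9 CPM in the other ZL libraries, and was -0.15 without it, while L3mbtl2 was -0.19 without Jak1 KO 4. PR-DUB subunits and H3K27 demethylases had 8 below and 3 above of 11, with a median of -0.24. The lowest of them was Foxk2, a forkhead partner of the deubiquitinase, at -0.69 (SE 0.26, adjusted p = 0.818 by edgeR), followed in p by Foxk1 at -0.37; without wt 4 Foxk2 was at -0.45. The H3K27 demethylase gene Kdm6a had -0.24, and 0.11 without wt 6. Its Y-linked copy Uty was at 0 or 1 count in the 6 libraries whose Xist and Y-linked genes show a female pattern (4 in ZL and 2 in VD), so its fold change (-0.58, SE 1.66) carries little. Trithorax and H3K4 methyltransferase genes, which oppose Polycomb, had 8 below and 4 above of 12, with a median of -0.03. The smallest p there belonged to Rbbp5, a core subunit of the H3K4 methyltransferase complexes, at -0.22 (-0.03 without Jak1 KO 4), and to Kmt2a (listed as Mll1), at -0.16. Without Jak1 KO 4, Jak1 KO 6 and wt 6, the medians of these 4 lists were 0.02, 0.03, -0.02 and 0.03 in the order given.

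Known Polycomb targets were the list with all fold changes on 1 side. Of the 18 listed 11 could be tested, and 11 of 11 were above 0, with a median of 0.23. By edgeR 0 were called and 1 stood at an unadjusted p under 0.05. Over all genes 49% lay above 0. That share varied with exon length (37.3% over genes of 3974 to 16870 bp) and was not computed for the lengths of the targets. All those tested but Cdkn2c were Hox genes of the Hoxa, Hoxb and Hoxc clusters, so the list speaks mostly of Hox genes. Cdkn2b, Gata4, Gata6 and Pax6 were not tested. Some values were near 0, as for Hoxc6 (0.003) and Hoxb6 (0.05). Without Jak1 KO 4, Jak1 KO 6 and wt 6, 9 of 12 targets were above 0. In the sets taken alone, 11 of 13 were above 0 in ZL and 8 of 11 in VD. The gene with the smallest p was Hoxa9, a homeobox gene of stem and progenitor cells. It was measured at 102, 101, 112, 150, 119 and 118 CPM in Jak1 KO 1 to 6, against 75.6, 76.4, 97.7, 87.1, 110.4 and 90.4 CPM in wt 1 to 6. All Jak1 KO libraries were above all wt libraries within each set, beside 0.425% of all genes. Since Hoxa9 was picked by its p in these same libraries, that separation is not further support. The log2 fold change was 0.38 (SE 0.13, unadjusted p = 0.0122, adjusted p = 0.674 by edgeR). Hoxa7 had the larger fold change at 0.50 (SE 0.25), which was 0.22 without Jak1 KO 4, and Cdkn2a, the best studied Bmi1 target, had 11 counts over all libraries and was not tested.

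Proliferation genes, which bear on Dnmt1 and Ezh2 because both rise in dividing cells, were below 0 for 15 of 17, with a median of -0.27. By edgeR 0 were called and 4 of them stood at an unadjusted p under 0.05, beside 49% of all genes above 0 and 5.06% at that p. These shares were not computed for genes of their exon lengths. In ZL 12 of 17 were below 0, in VD 17 of 17, and without the same 3 libraries 17 of 17 with a median of -0.14. The replication helicase genes Mcm2 (-0.52) and Mcm5 (-0.36) were among them. Dnmt1, at -0.43, lay on the same side, and the part of proliferation in its value was not tested.

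**Figure D5:**
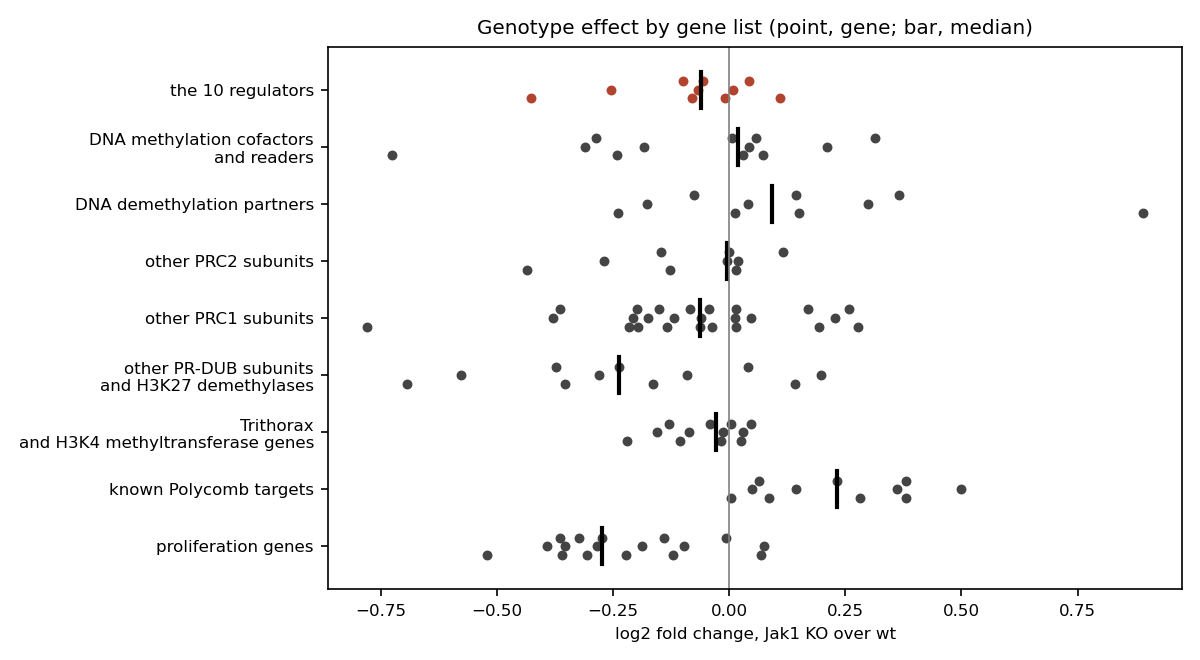
Log2 fold change of Jak1 KO over wt for the tested genes of each related list and for the 10 regulators, 1 point per gene, with list medians. Known Polycomb targets, all Hox genes but Cdkn2c, lie above 0 for 11 of 11 genes. Proliferation genes lie below 0 for 15 of 17, with no gene past the adjusted threshold.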

How the data were processed

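Libraries were poly-A TruSeq version 2, from TRIzol RNA, per the labels' protocols. The authors deposited raw counts of reads for each gene, made with STAR 2.3.0e, featureCounts and Subread on mm10, per the submitters' processing notes; the sources used here give neither annotation nor strand setting. Genotypes came from titles and sets from descriptions. Counts were filtered by filterByExpr on genotype, scaled by TMM and fitted in R 4.3.3 with edgeR 4.0.16 (quasi-likelihood test, terms for set and genotype, Benjamini-Hochberg over all genes tested, threshold 0.05). Normalised CPM uses TMM sizes; log2 CPM has a prior count of 2; RPKM divides by GENCODE M21 exon lengths, matched for 23106 symbols (1236 as older symbols). Values after ± are SDs. Counts cover 8989965 to 28701855 reads per library, with 284 to 16386 counts for each of the 10 genes, and the spread between libraries sets their precision. Replicates of a group differed by more than sampling noise (lowest chi-square per degree of freedom 13.8).

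The members and lists were chosen with earlier results of these data known. All 10 regulators are reported. Up to 2 genes of each related list were named by smallest p, and Uhrf1, Eed, Suz12, Kdm6a, Uty and Cdkn2a were named besides. Alternatives were DESeq2 1.42.0, limma-voom (limma 3.58.1), other size factors and filters, no set term, a replicate block, a sex term, an exon length offset, Rn45s and Lars2 removed, each set alone, each library left out, and 3 ZL libraries (Jak1 KO 4, Jak1 KO 6, wt 6) left out at once. The alternatives for VD alone and the coding transcript length were chosen after seeing the data.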

Additional observations from a re-analysis of the deposited data

Results flagged for a closer look

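In 20 groups of 6 libraries (each of the 10 genes in each genotype), 2 had an end library whose gap to its neighbour was large against the whole range of the group. About 1 group in 20 would do so by chance if its 6 values came from 1 normal distribution. Each group here pools 3 VD and 3 ZL libraries, and the groups share libraries, so that rate need not hold. Ezh1 in wt libraries stood at 112.9 CPM in wt 6, with a gap of 0.65 of the range. Ezh2 in wt libraries stood at 98.9 CPM in wt 6, the lowest, with a gap of 0.63 of the range, beside a critical value of 0.625. Both come from the library whose levels rose with exon length at a Spearman correlation of 0.38 across genes, and the part of that trend in these values was not tested.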

How the results depend on the processing

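No alternative over 12 libraries called any of the 10 genes for genotype or any of the 107 related genes, and the interaction called 0 of 10 under all 23 alternatives. The exceptions are the fits of VD alone, which called 1 (Ezh1), 0 with the length offset and 0 to 1 with a library left out. ZL over VD called 6 of 10, 4 with the length offset and 4 to 8 with a library left out; Tet1 was a further gene called lower with both other scalings, with DESeq2, with limma-voom, without the 3 ZL libraries and without Rn45s. Over all genes, edgeR called 58 for genotype, DESeq2 126, limma-voom 220, the fit with no set term 14, VD alone 149 and ZL alone 0. Fold changes of uncalled genes changed sign as follows. Bmi1 was 0.023 with DESeq2's size factors and with DESeq2, 0.028 with upper quartile factors, 0.033 with no filter, 0.25 with limma-voom, 0.00094 with no set term, 0.027 with the sex term, 0.22 in VD, 0.13 without the 3 ZL libraries and 0.024 with the offset. With limma-voom Tet2 was 0.10, Tet3 0.14, Asxl1 0.021, Mll1 0.049, Eed -0.0078 and Uty 0.50. In VD Tet2 was 0.029, Tet3 0.18, Asxl1 0.019, Mll1 0.041, Eed -0.053 and Uty 0.43. Without the 3 ZL libraries Tet2 was 0.16, Tet3 0.22, Mll1 0.056 and Kdm6a 0.060. The offset gave Tet2 0.0047 and Tet3 3.3e-05, no set term gave Tet3 0.048, and leaving out Rn45s and Lars2 gave Eed -0.0058. The sex term put Dnmt3a at -0.0071. In ZL alone Dnmt3a was -0.23, Tet1 -0.16, Ezh1 -0.23 and Ezh2 0.0055. For ZL over VD, Ezh1 was -0.10 with DESeq2's size factors and with DESeq2, -0.052 with upper quartile factors, -0.021 with no filter, -0.11 with limma-voom, -0.058 with the sex term, -0.16 without the 3 ZL libraries and -0.094 without Rn45s. Bmi1 was 0.21 without the 3 ZL libraries, and the offset gave Tet1 0.42, Tet2 0.070 and Ezh2 0.23. With a library left out, genotype fold changes ranged over -0.15 to 0.32 for Bmi1, -0.084 to 0.19 for Dnmt3a, -0.18 to 0.020 for Dnmt3b, -0.11 to 0.34 for Ezh1, -0.033 to 0.18 for Tet1, -0.19 to 0.22 for Tet2 and -0.12 to 0.12 for Tet3. They ranged over -0.098 to 0.13 for Eed, -0.57 to 0.11 for Kdm6a, -0.88 to 0.065 for Mbd2, -0.22 to 0.016 for Suz12 and -1.63 to 2.02 for Uty. For ZL over VD the ranges were -0.47 to 0.00035 for Bmi1 and -0.15 to 0.15 for Ezh1. The cause of these changes was not tested.

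Replicate numbers are shared across genotypes. Same-numbered libraries correlated above 0.1 in 4 of 6 pairs, from 0.04 for number 1 to 0.67 for number 6. Of the Jak1 KO libraries, 3 of 6 correlated best with their own number. Both libraries of every number showed the same sex pattern. These values do not settle whether the numbers mark pairs. The main fits took the libraries as unpaired, and a fit with a replicate block was run beside them. With the replicate block 0 of the 10 were called and 72 of all genes, with Bmi1 at 0.096 and Dnmt3a at -0.0067.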
